A study of Homo sapiens with 6 samples.

Results

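The hemidesmosome and laminin-332 genes described here are ITGA6, ITGB4, LAMA3, LAMB3, COL17A1, PLEC, DST and CD151, found by their symbols among the 12499 genes of the deposited count table. All 8 had 1 row each, and gene positions are those of GENCODE on GRCh38. The libraries came from HaCaT cells, an immortalized human keratinocyte line, infected for 48 hours with a lentivirus carrying the ATF7 coding sequence (LV-ATF7) or with a negative control lentivirus (LV-NC) and then kept in high glucose for 24 hours, so that both groups shared the line, the infection and the glucose. There were 3 libraries in each group. Nothing in the sources used here states that the replicates were separate cultures, and p-values then measure the spread between these libraries, which may be technical.

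Hemidesmosomes are the rivets that hold basal keratinocytes on the basement membrane. Outside the cell, laminin-332, to which LAMA3 gives the alpha and LAMB3 the beta chain, is bound by the integrin formed from ITGA6 and ITGB4, with the tetraspanin CD151 and the transmembrane collagen COL17A1 beside it. Inside the cell, the plakins PLEC (plectin) and DST (whose epithelial product is the bullous pemphigoid antigen) tie the integrin to keratin filaments. Inherited loss of most of these proteins blisters the skin, and the same parts are taken down and rebuilt when keratinocytes migrate over a wound.

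Total counts ran from 16686472 to 20562768 per library. Levels are given as CPM, read counts scaled to the depth of the library. ATF7 itself was at 50.6, 46.4 and 52.2 CPM in replicates 1, 2 and 3 of the libraries labeled LV-NC and at 21.9, 25.7 and 27.98 CPM in those labeled LV-ATF7, which goes against the labels, although 94.3% of its coding bases lie in exons of other genes. Libraries are therefore named by their labels, and every direction below rests on them. LV-NC replicate 1 stood apart, with a correlation across genes of 0.967 and 0.969 to the other LV-NC libraries, which correlated at 0.994. The LV-ATF7 libraries correlated at 0.993 to 0.995 with each other. Between LV-NC and LV-ATF7 libraries the correlation was only 0.838 to 0.862. All 11 keratinocyte markers checked had a row, and their summed level was 1396 to 2141 CPM in LV-NC and 5840 to 6353 CPM in LV-ATF7. Of the 11, 5 were called higher and 2, EPCAM and KRT14, lower, where 34.7% of all genes were called higher and 32.9% lower. For KRT14 the groups overlapped. Most of the rise in the sum was that of KRT5, from 266.4 to 3354 CPM. KRT14, a defining keratin of basal keratinocytes, was near 0, at 0.37, 12.5 and 11.3 CPM in LV-NC and at 1.45, 1.38 and 1.82 CPM in LV-ATF7. TP63, the transcription factor of the basal epidermal lineage, was at 15.5 ± 2.84 CPM in LV-NC and 231.5 ± 10.8 CPM in LV-ATF7 (± SD, n = 3 per group), a log2 fold change of LV-ATF7 against LV-NC (log2FC) of 3.90 (edgeR adjusted p = 1.18e-06). Of the markers of other cells, 3 of 10 for fibroblasts, 3 of 10 for macrophages, 2 of 7 for melanocytes and 2 of 6 for endothelium had a row. Their summed levels in LV-NC and LV-ATF7, without THY1, which failed the filter, were 33.1 to 42.7 and 17.3 to 21.7 CPM for fibroblasts, 5.57 to 8.13 and 9.38 to 12.7 CPM for macrophages and 17.5 to 24.8 and 12.2 to 13 CPM for melanocytes. The fibroblast sum was mostly COL1A1, with means of 36.7 and 16.8 CPM, while DCN was at 0.55 and 2.67 CPM. The endothelial sum was 1.12 to 5.499 CPM in LV-NC and 84.6 to 89.9 CPM in LV-ATF7, where VWF made up 2.85 to 3.93 CPM and CDH5 the rest. The part of these markers in the results below was not tested. Whether the groups also differed in their cells was not tested, and such a difference cannot be told apart here from that of the lentivirus.

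The genes did not move together. The integrin ITGA6 and ITGB4, its partner CD151, the collagen COL17A1 and the laminin chain LAMB3 were higher in the libraries labeled LV-ATF7, whereas the laminin chain LAMA3 and the plakin PLEC were lower, and DST did not pass the test. In the quasi-likelihood test of edgeR, adjusted over 12462 genes by the method of Benjamini and Hochberg, 7 of 8 had an adjusted p under 0.05, where 67.6% of all genes tested did. The 5 higher genes stand beside 34.7% of all genes called higher, and the 2 lower beside 32.9% called lower. The 3 libraries of each group did not overlap for 7 of 8, against 72.7% of all genes (38.0% with LV-ATF7 higher, as in 5 of these, and 34.7% with LV-ATF7 lower, as in 2). Without LV-NC replicate 1, all 8 passed, where 80.1% of genes did. Their median log2FC was 0.54, and that of all genes tested was 1.6e-04. Scaling by library size only, in place of the TMM method used throughout, moved the median of all genes by -0.16 on the log2 scale, and the 7 genes kept direction and call under it. In bulk libraries, a change in the share of cells that express a gene and a change in its mRNA per cell cannot be told apart.

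**Figure D1:**
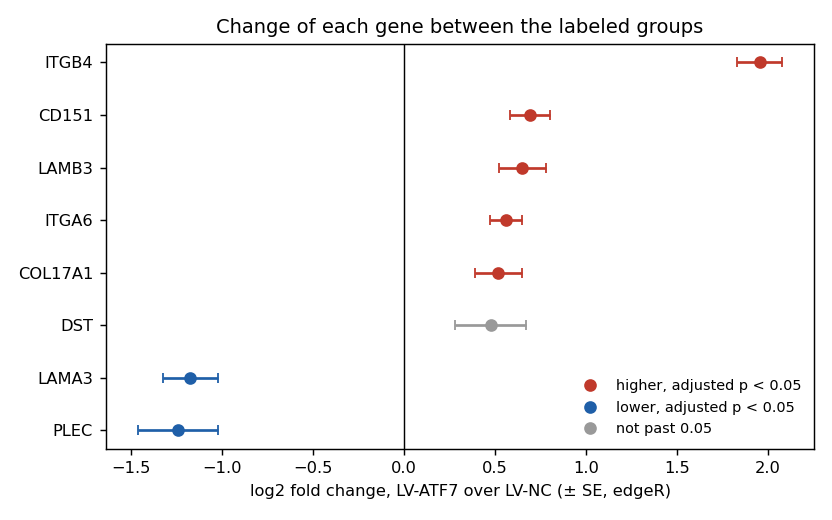
Log2FC (x axis, LV-ATF7 against LV-NC) for the 8 genes (y axis, ordered by value), with bars of 1 standard error (SE) from edgeR. ITGB4 lies farthest to the right at 1.95 and PLEC farthest to the left at -1.24, and DST (gray) did not pass an adjusted p of 0.05.

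Among the receptors, ITGB4 (ENSG00000132470, chr17:75721328-75757818, plus strand), the signaling chain whose long cytoplasmic tail docks to plectin, changed most. It was at 326.0, 254.8 and 280.2 CPM in LV-NC and at 1057, 1079 and 1201 CPM in LV-ATF7. The groups lay far apart, and each varied little within itself. The means were 287.0 ± 36.1 and 1112 ± 77.9 CPM (± SD, n = 3 per group), a 3.88-fold rise (log2FC 1.95, SE 0.12, edgeR adjusted p = 7.82e-06). Of all genes tested, 981 had a higher log2FC than ITGB4.

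ITGA6 (ENSG00000091409, chr2:172427354-172506282, plus strand), the alpha chain that reads the laminin and also pairs with ITGB1, was at 144.8, 147.2 and 147.6 CPM in LV-NC and at 226.8, 222.8 and 198.5 CPM in LV-ATF7. The LV-NC libraries were almost equal, and all LV-ATF7 libraries were above them. Its mean rose from 146.5 ± 1.49 to 216.0 ± 15.4 CPM (± SD, n = 3 per group; log2FC 0.56, SE 0.088, edgeR adjusted p = 7.12e-04), or 1.47-fold. Genes on the opposite strand overlap 5.37% of its exon bases.

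CD151 (ENSG00000177697, chr11:832843-839831, plus strand), the tetraspanin that clusters laminin-binding integrins, was at 94.8, 74.9 and 79.9 CPM in LV-NC and at 130.2, 131.3 and 141.5 CPM in LV-ATF7. Groups did not overlap, and LV-NC replicate 1 was the LV-NC library nearest to LV-ATF7. The change was 1.61-fold, from 83.2 ± 10.3 to 134.3 ± 6.26 CPM (± SD, n = 3 per group; log2FC 0.69, SE 0.11, edgeR adjusted p = 7.81e-04). The opposite strand holds other genes, mainly POLR2L, over 7.57% of the exon bases and 19.2% of the coding bases of CD151, and since strand in the counting is not given in the sources used here, reads from them cannot be told apart.

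**Figure D2:**
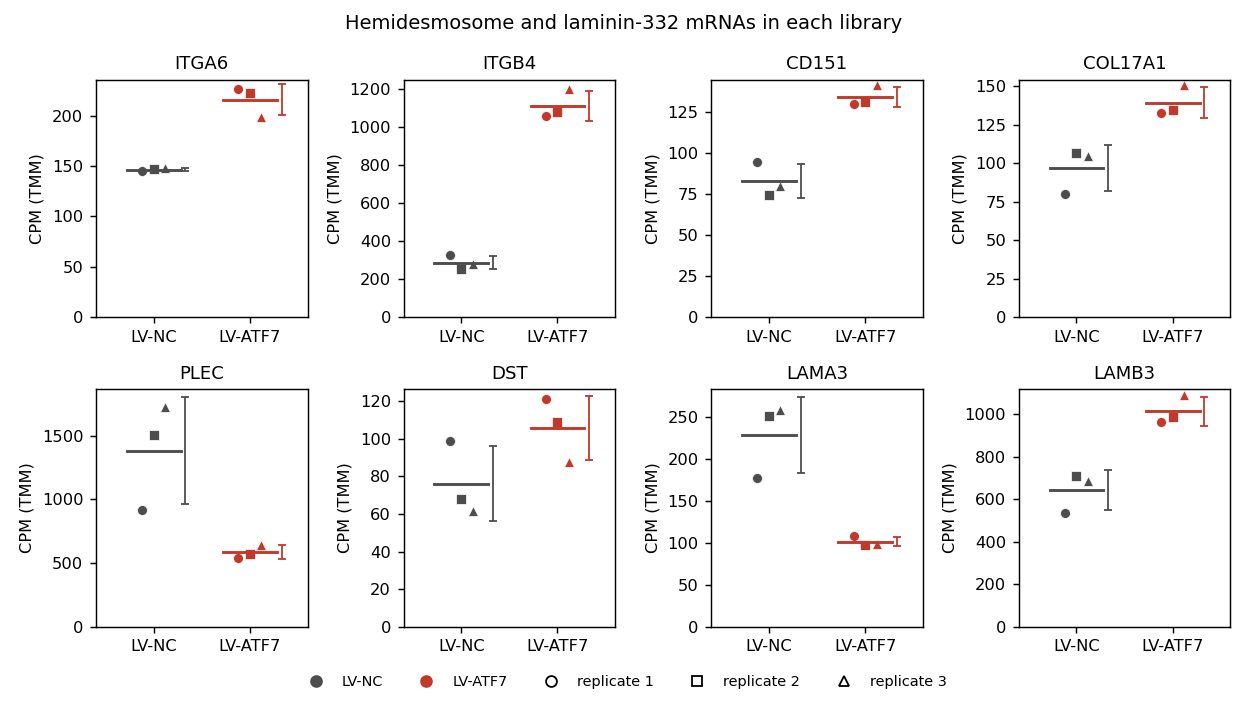
TMM-normalized CPM (y axis, from 0) of each gene in the 3 LV-NC and 3 LV-ATF7 libraries, 1 panel per gene, with symbols for replicates, a line at the mean and a bar of ± SD (n = 3). The groups are apart in all panels except DST, where LV-NC replicate 1 at 98.9 CPM lies above LV-ATF7 replicate 3 at 87.6 CPM.

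COL17A1 (ENSG00000065618, chr10:104031286-104085957, minus strand), the collagen of the hemidesmosome whose ectodomain is shed by ADAM proteases, was at 79.7, 106.5 and 104.8 CPM in LV-NC and at 132.2, 134.2 and 150.5 CPM in LV-ATF7. LV-NC replicate 1 was the lowest library and lay farther from LV-ATF7 than the other LV-NC libraries. The rise was 1.43-fold, from 97.0 ± 15.0 to 139.0 ± 10.1 CPM (± SD, n = 3 per group; log2FC 0.52, SE 0.13, edgeR adjusted p = 0.00779). Without LV-NC replicate 1 the log2FC was 0.37 (edgeR adjusted p = 7.99e-05), and over the 13 alternative fits the adjusted p ran from 1.54e-05 to 0.0363.

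PLEC (ENSG00000178209, chr8:143915147-143976734, minus strand), the cytolinker that joins ITGB4 to keratin, was at 918.2, 1508 and 1722 CPM in LV-NC and at 538.5, 570.8 and 644.1 CPM in LV-ATF7. All LV-ATF7 libraries were lower, and LV-NC replicate 1 stood between the other LV-NC libraries and LV-ATF7. The mean fell from 1383 ± 416.4 to 584.5 ± 54.1 CPM (± SD, n = 3 per group), 2.37-fold (log2FC -1.24, SE 0.22, edgeR adjusted p = 0.00134). Replicates 2 and 3 of LV-NC averaged 1.76 times the CPM of replicate 1. The log2FC was -1.49 without that library (edgeR adjusted p = 6.83e-16) and ran from -1.49 to -1.09 over the alternative fits, with adjusted p from 6.83e-16 to 0.0104.

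DST (ENSG00000151914, chr6:56457987-56954628, minus strand), the plakin on the inner plaque, was at 98.9, 67.8 and 61.7 CPM in LV-NC and at 121.1, 109.2 and 87.6 CPM in LV-ATF7. Its groups overlapped, since LV-NC replicate 1 lay within the range of LV-ATF7. The means were 76.1 ± 19.9 and 106.0 ± 17 CPM (± SD, n = 3 per group; log2FC 0.48, SE 0.20, edgeR adjusted p = 0.0595). Without LV-NC replicate 1 the log2FC was 0.69 and DST passed (edgeR adjusted p = 2.07e-06). With sample weights in limma voom DST passed too, where 83.4% of all genes did. That fit gave LV-NC replicate 1 a weight of 0.095 and the other libraries 0.58 to 3.66, so it comes close to leaving that library out. The adjusted p of DST lay between 2.20e-08 and 0.247 in the 13 alternative fits. DST has 35 annotated transcripts, whose products include epithelial, nerve and muscle forms, and its gene count adds them all, so the epithelial form was not measured by itself. The longest annotated transcripts of DST, PLEC and LAMA3 have 22431, 15249 and 10661 bases, and the forms expressed here were not told apart. Among the 1118 genes with a longest transcript of at least 8000 bases, 33.3% were called higher and 33.3% lower, with a median log2FC of -0.0011. The part of transcript length in the changes of these 3 genes was not tested.

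LAMB3 and LAMA3, chains of the ligand laminin-332, moved in opposite directions. LAMB3 (ENSG00000196878, chr1:209614870-209652466, minus strand), the beta chain, was at 536.0, 709.9 and 687.2 CPM in LV-NC and at 963.4, 984.4 and 1088 CPM in LV-ATF7. The lowest LV-ATF7 library was above the highest LV-NC library. LAMB3 rose 1.57-fold, from 644.4 ± 94.5 to 1012 ± 66.7 CPM (± SD, n = 3 per group; log2FC 0.65, SE 0.13, edgeR adjusted p = 0.00266).

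LAMA3 (ENSG00000053747, chr18:23689443-23956222, plus strand), the alpha chain whose globular end the integrins bind, was at 176.7, 251.2 and 257.8 CPM in LV-NC and at 107.6, 97.3 and 98.9 CPM in LV-ATF7. Again the groups were apart, with LV-NC replicate 1 the nearest to LV-ATF7. LAMA3 fell 2.26-fold, from 228.6 ± 45.1 to 101.3 ± 5.56 CPM (± SD, n = 3 per group; log2FC -1.17, SE 0.15, edgeR adjusted p = 2.33e-04). No other annotated gene shares exon bases with LAMA3, and for LAMB3 0.13% are shared.

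Ratios of partners within a library do not depend on how libraries are scaled, and 4 pairs were compared. Each was tested by an exact two-sided permutation test of 3 libraries against 3, whose smallest possible p is 0.10, and 0.133 after adjustment over the 4 pairs here. The ratio of LAMB3 to LAMA3 was 3.03, 2.83 and 2.66 in LV-NC and 8.94, 10.1 and 11.0 in LV-ATF7. The groups were far apart, and the ratio grew 3.52-fold (log2 difference 1.82, SE 0.10, exact permutation p = 0.10).

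For the integrin, the ratio of ITGB4 to ITGA6 was 2.25, 1.73 and 1.90 in LV-NC and 4.66, 4.84 and 6.05 in LV-ATF7, so the beta chain rose 2.64-fold more than its partner (log2 difference 1.40, SE 0.16, exact permutation p = 0.10). The ratio of PLEC to DST was 9.28, 22.2 and 27.9 in LV-NC and 4.44, 5.22 and 7.35 in LV-ATF7 (log2 difference -1.69, SE 0.53, exact permutation p = 0.10). In these 3 pairs the groups did not overlap. For CD151 over ITGA6 the log2 difference of the ratio was 0.14 (SE 0.15, exact permutation p = 0.40), and the groups overlapped.

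**Figure D3:**
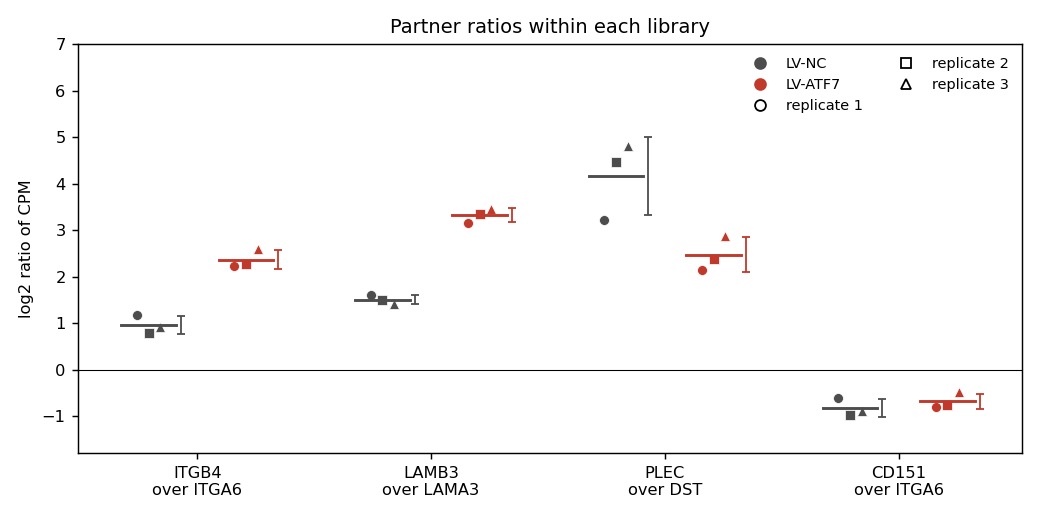
Log2 ratio of the CPM of each pair of partners (y axis) in the 6 libraries, with symbols for replicates, a line at the mean and a bar of ± SD (n = 3). The LAMB3 to LAMA3 ratio climbs from a mean of 1.504 in LV-NC to 3.32 in LV-ATF7, while CD151 over ITGA6 overlaps between groups.

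Promoter windows were given for 5 of the 8 genes, and for ITGB4, PLEC and CD151 there was none to search. The windows are RefSeq sequences (GRCh38.p14) from 250 bases before to 50 after the annotated start. They are shown for the laminin chains that moved apart and for ITGA6. Among the 5, only the ITGA6 window held the core of the cAMP response element, the site that factors of the ATF family bind. Motifs searched on both strands were TGACGTCA (the full element), TGACGT (its core, which the full element contains) and TGANTCA (the site of AP-1 factors, which reads as itself on the other strand). Matches are in capitals.
LAMA3, chr18:23872770-23873069, plus strand: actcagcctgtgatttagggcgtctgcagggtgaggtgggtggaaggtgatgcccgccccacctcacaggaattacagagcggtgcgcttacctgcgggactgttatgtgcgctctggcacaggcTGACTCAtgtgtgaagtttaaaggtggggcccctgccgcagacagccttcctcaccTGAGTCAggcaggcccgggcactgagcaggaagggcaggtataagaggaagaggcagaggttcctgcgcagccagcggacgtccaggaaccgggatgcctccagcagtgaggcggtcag
LAMB3, chr1:209652376-209652675, minus strand: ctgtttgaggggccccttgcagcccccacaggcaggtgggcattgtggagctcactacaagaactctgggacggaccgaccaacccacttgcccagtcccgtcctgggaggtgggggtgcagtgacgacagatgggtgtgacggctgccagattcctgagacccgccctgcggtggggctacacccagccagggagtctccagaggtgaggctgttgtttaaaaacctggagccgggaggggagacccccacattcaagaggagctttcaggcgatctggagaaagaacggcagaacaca
ITGA6, chr2:172427086-172427385, plus strand: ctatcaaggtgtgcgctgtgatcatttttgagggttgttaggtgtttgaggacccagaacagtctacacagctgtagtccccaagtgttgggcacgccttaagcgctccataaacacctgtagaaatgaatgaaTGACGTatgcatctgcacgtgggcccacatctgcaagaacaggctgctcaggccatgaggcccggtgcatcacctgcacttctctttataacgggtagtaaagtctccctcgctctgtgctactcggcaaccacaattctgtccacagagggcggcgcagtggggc

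The LAMA3 window held the AP-1 letters at 2 places, with first bases at -125 and -69 from the start, and the LAMB3 window held none of the 3 motifs. That LAMA3 start lies 183577 bases inside the gene, near the start of the shorter transcripts, and the gene count does not tell these from the longer ones. In ITGA6 the core TGACGT began at -116. Of the windows not printed, that of DST held TGAGTCA at 26 bases after the start, and COL17A1 held none of the motifs. Among all 27305 promoter windows of the same length, 7.76% held TGANTCA, 8.32% held TGACGT and 1.98% held TGACGTCA. A match is a match of letters only.

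To set the genes against each other, CPM was divided by the length in kilobases of all annotated exons counted once. In LV-NC this level was highest for LAMB3 (137.5 ± 20.2 CPM per kilobase, SD, n = 3), followed by PLEC (81.4 ± 24.5) and ITGB4 (42.5 ± 5.34). Below these came ITGA6 (22.4 ± 0.23 CPM per kilobase), CD151 (21.1 ± 2.63), LAMA3 (15.6 ± 3.07), COL17A1 (13.7 ± 2.13) and DST (1.80 ± 0.47). The libraries of neighbors overlapped for ITGA6 and CD151 and for LAMA3 and COL17A1, and were apart for the other neighbors.

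In LV-ATF7 LAMB3 was again highest (215.8 ± 14.2 CPM per kilobase, SD, n = 3), and ITGB4 came next (164.5 ± 11.5). PLEC (34.4 ± 3.18 CPM per kilobase), CD151 (34.1 ± 1.59) and ITGA6 (33.1 ± 2.35) followed, with overlap between each neighboring pair. COL17A1 (19.7 ± 1.42 CPM per kilobase) was apart from these, and LAMA3 (6.90 ± 0.38) and DST (2.50 ± 0.40) stood last. The choice of length moved the order between these ends. With the longest transcript as the length CD151 moved most of the 8 genes, from 34.1 to 72.3 CPM per kilobase in LV-ATF7, and PLEC went from place 3 to 5 there. By the deposited FPKM, PLEC was in place 6 in LV-ATF7, and in LV-NC ITGB4 stood above PLEC. The length behind that FPKM was 11.7 times the merged exon length for PLEC. For the rest it lay between 2.79 (COL17A1) and 5.775 (DST) times, so the FPKM set PLEC lower against the others. LAMB3 was first and DST last in both groups under each of these lengths.

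LAMA5, LAMB1, LAMB2 and LAMC1, chains of other laminins, were higher in LV-ATF7, where 34.7% of all genes were called higher. All but LAMB2 were named after their values were seen. LAMA2 also had a row but failed the filter. LAMA5, the alpha chain of the broad basement membrane laminins, rose from 443.8 ± 113.5 to 2044 ± 160.6 CPM (± SD, n = 3 per group; log2FC 2.20, edgeR adjusted p = 2.85e-05). LAMB2 rose from 120.1 ± 75.7 to 709.5 ± 33.2 CPM (log2FC 2.56, edgeR adjusted p = 5.53e-04), and its LV-NC libraries ranged from 75.2 CPM to the 207.5 CPM of replicate 1. LAMB1 (log2FC 1.53, edgeR adjusted p = 1.52e-05) and LAMC1 (0.72, edgeR adjusted p = 1.63e-04) rose as well. Per kilobase, LAMA5 was at 31.1 ± 7.94 CPM in LV-NC and 143.0 ± 11.2 CPM in LV-ATF7, beside 15.6 and 6.90 CPM for LAMA3.

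**Figure D4:**
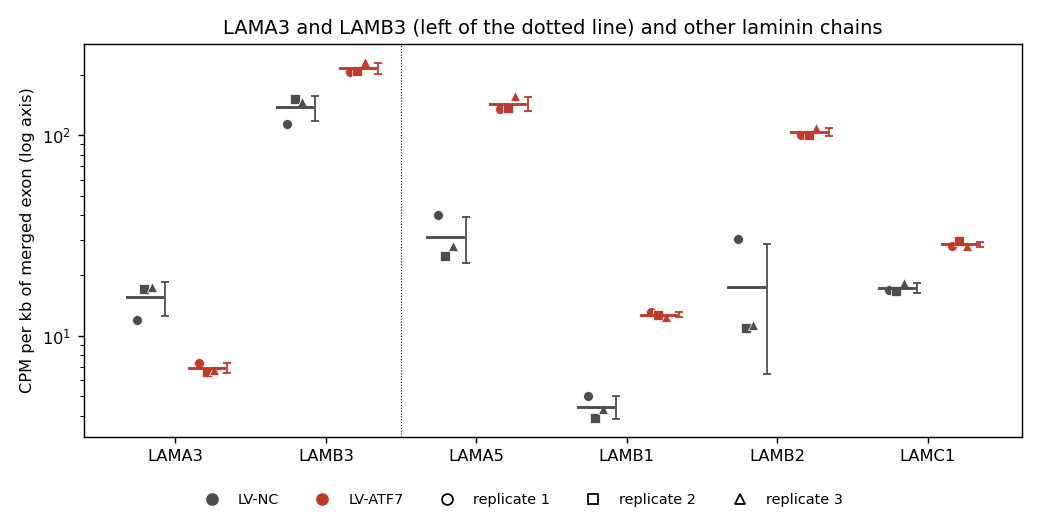
CPM per kilobase of merged exon (y axis, log scale) of laminin chains in the 6 libraries, with symbols for replicates, a line at the mean and a bar of ± SD (n = 3). LAMA3 is lower in LV-ATF7, while LAMB3 and the 4 chains right of the dotted line, led by LAMA5 at 143.0 CPM per kilobase, are higher.

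The lists of neighboring genes were written by hand with results of these data known, and their counts are descriptions. In the list of basement membrane and anchoring fibril genes, 15 of 17 tested genes were higher, 0 were lower and 2 did not pass, with a median log2FC of 1.43, where 34.7% of all genes were higher and 32.9% lower. Without LV-NC replicate 1, 16 of 18 were higher and 2 lower, where 80.1% of all genes were called. The largest rises by the naming rule were those of NID1, which links laminin to collagen IV (log2FC 4.87, edgeR adjusted p = 1.39e-06), NTN4, a laminin-like netrin (2.98, edgeR adjusted p = 6.90e-05), and LAMB2. NID1 was low, at 0.53 ± 0.058 CPM in LV-NC and 15.6 ± 1.53 CPM in LV-ATF7 (± SD, n = 3 per group). COL7A1, the anchoring fibril collagen beneath the hemidesmosome, was at 262.5, 141.6 and 137.1 CPM in LV-NC and 287.4, 276.7 and 325.5 CPM in LV-ATF7 (log2FC 0.72, edgeR adjusted p = 0.0293).

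Of 14 other receptors of laminin and matrix, 8 were higher and 5 lower (median log2FC 0.46), beside 34.7% and 32.9% of all genes. DDR1, a collagen receptor kinase, rose most (log2FC 2.62, edgeR adjusted p = 2.41e-05), followed by the syndecan SDC1 (1.82, edgeR adjusted p = 4.91e-06), and ITGB5 fell by 1.24 on the log2 scale (edgeR adjusted p = 1.26e-05). The chains of the other laminin-binding integrin of keratinocytes parted: ITGA3 rose from 1002 ± 94.5 to 1318 ± 106.3 CPM (± SD, n = 3 per group; log2FC 0.40, edgeR adjusted p = 0.0167), and ITGB1 fell from 455.9 ± 47.4 to 331.1 ± 28.7 CPM (± SD, n = 3 per group; log2FC -0.46, edgeR adjusted p = 0.00722). ITGA3, ITGB1 and DAG1 were named after their values were seen. For DAG1, the dystroglycan, the groups overlapped, with a log2FC of 0.016 (edgeR adjusted p = 0.895).

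Among 12 other plakins and keratins, to which the inner plaque is tied, 5 were higher and 4 lower (median log2FC -0.16). This share called, 75.0%, was near the 67.6% of all genes. Without LV-NC replicate 1 the counts were 5 and 7, where 80.1% of all genes were called. KRT5, the basal keratin, rose from 266.4 ± 144.3 to 3354 ± 232.5 CPM (± SD, n = 3 per group; log2FC 3.65, edgeR adjusted p = 1.89e-04), and LV-NC replicate 1 was the lowest library at 99.96 CPM, where replicates 2 and 3 were at 355.5 and 343.8 CPM. KRT15, another basal keratin, rose by a log2FC of 3.43 (edgeR adjusted p = 5.34e-05). The other keratins of the list, named after their values were seen, did not share this direction. KRT14 was called lower (log2FC -2.37, edgeR adjusted p = 0.0461), with overlap between groups, and KRT18 higher (0.84, edgeR adjusted p = 0.00790). KRT6A (log2FC -1.70), KRT17 (-0.88) and KRT8 (0.029) did not pass, and their groups overlapped. The plakin EPPK1 fell by 1.13 on the log2 scale (edgeR adjusted p = 0.00207). The other plakins, named after their values were seen, moved both ways: DSP (log2FC 0.74, edgeR adjusted p = 0.00171) and EVPL (0.43, edgeR adjusted p = 0.0114) rose, and PPL (-0.57, edgeR adjusted p = 0.00537) and MACF1 (-0.34, edgeR adjusted p = 0.0395) fell. For MACF1 the groups overlapped, with LV-NC replicate 2 at 87.5 CPM and LV-ATF7 replicate 2 at 88.5 CPM. Of 8 other genes of skin fragility disorders tested, 3 were higher and 3 lower (median log2FC -0.073), a share called of 75.0% beside 67.6% of all genes, with CSTA (log2FC 2.50), PKP1 (2.16) and SERPINB8 (-1.14) the largest.

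**Figure D5:**
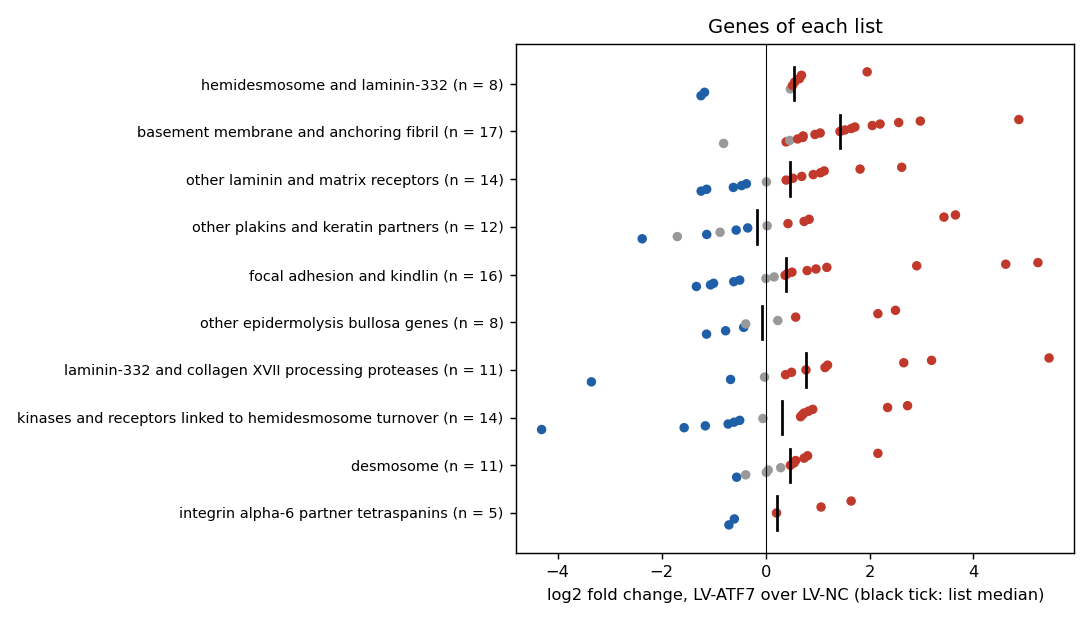
Log2FC (x axis, LV-ATF7 against LV-NC) for every tested gene of each list (y axis), red where called higher, blue where called lower and gray where the adjusted p was 0.05 or more, with a black tick at the list's median. The basement membrane list has 15 red points and no blue one, and the hemidesmosome and laminin-332 genes have 5 red, 2 blue and 1 gray.

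The list of proteases linked to the trimming of laminin-332 or the shedding of COL17A1 also holds the plasminogen activators PLAT and PLAU and the urokinase receptor PLAUR. Of its 11 tested genes, 8 were higher and 2, ADAM9 and PLAUR, were lower (median log2FC 0.78, beside 34.7% of all genes called higher and 32.9% lower). The ADAM proteases that can shed COL17A1, named after their values were seen, did not share a direction. ADAM9 fell by 0.67 on the log2 scale (edgeR adjusted p = 5.57e-04), ADAM10 rose by 0.38 (edgeR adjusted p = 0.0309), and ADAM17 had a log2FC of -0.020 (edgeR adjusted p = 0.856). PLAT, the tissue plasminogen activator, rose from 16.4 ± 1.09 to 718.5 ± 30.3 CPM (± SD, n = 3 per group; log2FC 5.46, edgeR adjusted p = 4.97e-07). PLAU, the urokinase, rose by 3.19 on the log2 scale (edgeR adjusted p = 7.90e-07), while its receptor PLAUR fell by 3.35 (edgeR adjusted p = 7.04e-05). Of 14 kinases and receptors linked to hemidesmosome turnover, 7 were higher and 6 lower (median log2FC 0.31), where 34.7% and 32.9% of all genes were. EGFR, whose signaling loosens hemidesmosomes through phosphorylation of ITGB4, was at 418.6, 263.3 and 299.3 CPM in LV-NC and at 1687, 1720 and 1590 CPM in LV-ATF7 (log2FC 2.35, edgeR adjusted p = 1.73e-05). FYN, a kinase of the SRC family, fell by 4.31 (edgeR adjusted p = 1.03e-06) and MAPK3 rose by 2.73 (edgeR adjusted p = 5.93e-06), both on the log2 scale.

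By Pearson's r of log2 CPM over the 6 libraries, the gene most like ITGB4 among 11175 others with a mean of at least 50 counts was ACTN1 (r = 0.99996), which encodes an actin crosslinker. The nearest gene was ADSS2 for ITGA6 (r = 0.9997), AMN for CD151 (r = 0.9995), ACP3 for COL17A1 (r = 0.9990) and TRAPPC1 for PLEC (r = 0.9997). For the laminin chains it was CRISPLD2 for LAMA3 (r = 0.9997) and ARMC6 for LAMB3 (r = 0.9992). These values share the 2 groups and the same libraries, and 2325 genes had an r over 0.95 with ITGB4. DST was the least matched, with CADPS2 nearest (r = 0.9946) and 102 genes over 0.95.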

How the data were processed

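RNA-seq was analyzed from 6 libraries, 3 per group, grouped by their deposited labels. The authors captured poly(A) mRNA, sequenced it on an Illumina NovaSeq instrument, filtered reads by quality and deposited raw read counts per gene; the build in the submitters' processing notes is GRCh38, and aligner, counter and strandedness are not given in the sources used here. The deposited FPKM rest on a length with a median ratio of 2.61 to the merged exon length and were used for 1 alternative of the levels only. The authors' deposited fold changes and p-values were not used. Gene positions and exon lengths are from GENCODE release 29 (GRCh38).

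Counts were tested with edgeR 4.0.16 (glmQLFit, glmQLFTest, TMM, filterByExpr, no covariates) in R 4.3.3, with Benjamini-Hochberg adjustment over 12462 genes and a threshold of 0.05; 37 genes failed the filter. Standard errors are the log2 fold change divided by the square root of F. Log2 CPM used a prior count of 2. Over all genes, replicates differed by more than sampling noise (chi-square per gene 2.85 to 75.4). Counting error still adds to the spread, most for genes with few counts, such as NID1 with 10, 11 and 8 counts in LV-NC. Permutation tests used SciPy 1.17.1. Alternative fits used DESeq2 1.42.0, scaling by library size alone or by the upper quartile, no filter on low counts, a minimum of 10 counts in all libraries, limma 3.58.1 (voom, sample weights), a block for the replicate number, and 1 library fewer, each library in turn. Only the main edgeR fit was also run on simulated counts. In these, few genes changed and no library stood apart, unlike in the data here.

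The genes and lists were chosen with earlier results of these data known. Named were the 8 genes, EGFR, TP63, COL7A1, up to 3 genes per list with the largest change among those past the threshold, without overlap between groups and with a mean of at least 50 counts, and the nearest gene by Pearson's r. Others were named after their values were seen. A further gene and its comparisons are not reported here.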

Additional observations from a re-analysis of the deposited data

How the results depend on the processing

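Each of ITGA6, ITGB4, LAMA3, LAMB3, COL17A1, PLEC and CD151 kept its direction and passed the threshold of 0.05 in all 13 alternative fits, with ITGB4 between 1.79 and 2.04 on the log2 scale. DST kept its direction but passed in 3 of 13 fits: with sample quality weights (0.752), with the replicate number as a block (0.495) and without LV-NC replicate 1. The sample weights nearly left out LV-NC replicate 1 (weight 0.095), so the first and last of these are not separate evidence. Leaving out each library in turn gave DST log2 fold changes from 0.306 to 0.692. In LV-NC replicate 1, DST was 1.53 times the mean of the other LV-NC libraries, and the cause was not tested. Replicate numbers gave no pairing of libraries, with correlations of deviations from the group means of 0.058, -0.021 and 0.065, and the block changed no other call among these genes (8210 genes called in all, against 8429). Over all genes the number called ran from 7290 to 10391. The log2 difference between groups in the ratio of PLEC to DST ranged from -2.17 to -1.37, the widest range of the 4 pairs. None of the 4 differences changed sign. Levels per kilobase moved beyond 1 SD for 20 of 24 values with the longest transcript as length and for 24 of 24 in the deposited FPKM. With 3 libraries per group, a permutation test cannot go below p = 0.10.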

Other observations

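Genes of the neighboring adhesion structures, which the report does not describe, also moved in both directions. Of 16 focal adhesion genes tested, 9 were higher and 5 lower (median log2 fold change 0.40) in the libraries labeled LV-ATF7, where 34.7% of all genes were higher and 32.9% lower. The tensins, which link integrin tails to actin, rose most: TNS3 was at 31.3, 16.7 and 20.1 CPM in LV-NC and at 822.5, 860.4 and 894.9 CPM in LV-ATF7 (log2 fold change 5.24, edgeR adjusted p = 2.17e-06). TNS4, a tensin of epithelia without the actin-binding part, was at 5.42 ± 0.77 and 133.4 ± 7.45 CPM (± SD, n = 3 per group; log2 fold change 4.62, edgeR adjusted p = 7.90e-07), and TNS1 had a log2 fold change of 2.91 (edgeR adjusted p = 2.21e-04). The kindlins parted, with FERMT1, the kindlin of keratinocytes, at 0.80 (edgeR adjusted p = 8.54e-05) and FERMT2 at -1.33 (edgeR adjusted p = 2.26e-05). The kindlins were named after their values were seen.

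In the desmosome, the junction between neighboring keratinocytes, 6 of 11 genes tested were higher and 1 lower, and 4 did not pass (median log2 fold change 0.48). This share called, 63.6%, was below the 67.6% of all genes. PKP1 (log2 fold change 2.16, edgeR adjusted p = 1.44e-05), DSC2 (0.81, edgeR adjusted p = 0.00177) and DSP (0.74, edgeR adjusted p = 0.00171) rose. Whether desmosome and hemidesmosome genes differ in their changes was not tested. Of 5 other tetraspanins, 3 were higher and 2 lower (median log2 fold change 0.21, beside 34.7% and 32.9% of all genes), with CD9 at 1.65 (edgeR adjusted p = 1.00e-05), CD63 at 1.07 (edgeR adjusted p = 4.48e-05) and TSPAN4 at -0.71 (edgeR adjusted p = 0.0115) on the log2 scale.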
